A study of Mus musculus with 11 samples.

Results

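Heat shock proteins and DnaJ co-chaperones were examined in bulk RNA from mouse ventricular myocardium. The members are the protein-coding genes whose symbols begin with Hspa, Hspb, Hspd, Hspe, Hsph, Hsp90 or Dnaj, and 73 of the 46517 genes in the deposited table meet this rule. A further 11 pseudogenes with such symbols were left out, and Hspa14 was not analysed here. Of the 73 members, 65 had enough counts to be tested. The 8 others were Dnajb7, Dnajb8 and Dnajc5g, with 0 counts in all 11 libraries, and Dnajb13, Dnajc5b, Dnajc6, Dnajc22 and Hspb9, which did not exceed 0.834 CPM in any library (CPM, the count scaled to a common library size, with TMM factors).

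Mice had transverse aortic constriction (TAC), a narrowing of the aorta that raises the pressure load on the left ventricle, or sham surgery, at 10 to 12 weeks of age. KO mice carried floxed Lmnb2, which encodes lamin B2 of the nuclear envelope, with a Cre recombinase driven by Tnnt2, a cardiomyocyte promoter. The controls, labelled Lmnb2 WT or, for WT sham 2, WT, carried the same Cre. The groups were KO TAC (n = 3), WT TAC (n = 3), KO sham (n = 3) and WT sham (n = 2), and values below follow library numbers within a group. Sample titles end in a letter, F in KO TAC 3, WT TAC 1 and KO sham 2 and M in all others. Both WT sham libraries carry M, so this title letter is unbalanced in comparisons with WT sham. The time from surgery to sampling is not given in the sources used here, and non-cardiomyocytes of the ventricle keep Lmnb2 by this design.

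Hsp70 proteins bind exposed stretches of unfolded proteins in a cycle of ATP hydrolysis. DnaJ proteins bring them clients and start that hydrolysis, and nucleotide exchange factors such as Hsp110 end the cycle. Hsp90 acts later on kinases and steroid receptors, chaperonins fold proteins inside a closed chamber, and small heat shock proteins hold unfolding proteins without using ATP. The endoplasmic reticulum and the mitochondria each have a set of their own, and the heart is known for high levels of small heat shock proteins, which protect the sarcomere.

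The libraries held 14770383 to 17333227 counts each, and members took 0.682% to 1.15% of them. Mitochondrially encoded genes took 22.4% to 35.9% of counts in KO TAC, 13.2% to 30.6% in WT TAC, 38.5% to 46.4% in KO sham and 32.8% and 49.4% in WT sham libraries. Cytoplasmic ribosomal protein genes took 0.871%, 3.22% and 3.17% in KO TAC, 6.74%, 4.01% and 1.32% in WT TAC, 1.73%, 0.912% and 1.44% in KO sham, and 1.52% and 0.652% in WT sham libraries, so that KO TAC 1 and WT TAC 3 stood apart from their own groups. Lmnb2 itself measured 9.72, 3.23 and 4.46 CPM in KO TAC and 2.86, 2.16 and 6.70 CPM in WT TAC libraries. After sham surgery it measured 0.648, 1.81 and 2.43 CPM in KO and 4.44 and 3.86 CPM in WT. The targeted gene was therefore not lower in the TAC libraries labelled KO than in those labelled WT, and KO is used here as a label. The 8 ventricular cardiomyocyte markers together measured 38240 to 50310 CPM in KO TAC, 43540 to 57240 in WT TAC, 59300 to 74710 in KO sham, and 53120 and 74090 CPM in WT sham libraries. The 7 fibroblast markers together measured 2072 to 3034, 2989 to 5160, 722.5 to 954.5, and 660.5 and 712.7 CPM in the same order. The 4 atrial markers together did not exceed 16.3 CPM in any library.

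Per length, 3 of the 4 highest members were small heat shock proteins. Hspb7, which binds thin filaments in striated muscle, averaged 790.0 CPM per kb of exon over the 11 libraries, the highest of the 73 members. Hspb6, also called Hsp20, followed with 343 CPM per kb. Hsp90ab1, the constitutive cytosolic Hsp90, averaged 332, and Hspb8, which works with the co-chaperone Bag3 in disposing of damaged sarcomere proteins, averaged 314 CPM per kb. Hspa8, the constitutive Hsp70, averaged 210.2 and Hspa9, the Hsp70 of the mitochondrial matrix, 149 CPM per kb. In contrast, the stress-inducible Hsp70 genes Hspa1a and Hspa1b averaged 0.261 and 0.373 CPM per kb. Hspa1a was the lowest of the tested members, close to Hspbap1 at 0.264. Of the 75-base pieces of Hspa1a and Hspa1b, 52.7% and 55.8% occur in the other gene. The treatment of reads with several alignments is not given, so both levels may be too low.

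**Figure D1:**
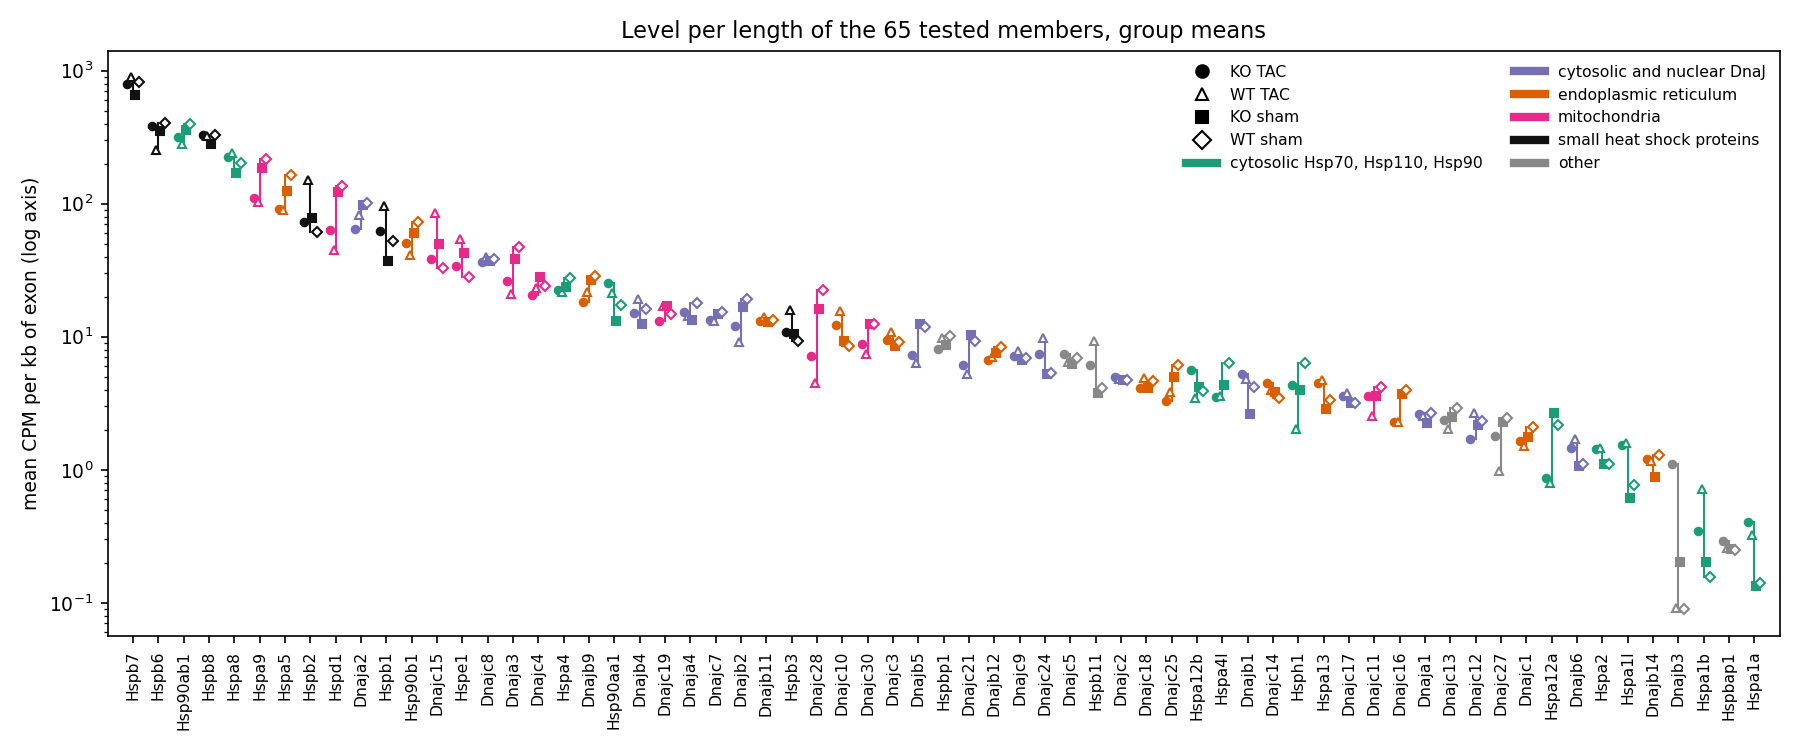
Mean level per kb of exon (vertical log axis) of the 65 tested members, ordered by their mean over all 11 libraries, with 1 symbol per group and 1 colour per place in the cell. Levels run from 790.0 CPM per kb for Hspb7 to 0.261 for Hspa1a, and mitochondrial genes such as Hspa9, Hspd1 and Dnajc28 have their TAC symbols below their sham symbols.

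Over both genotypes, 13 of the 65 tested members changed after TAC, 11 downward and 2 upward (edgeR, adjusted p under 0.05). The falls were in the mitochondrial genes Dnajc28, Hspd1, Hspa9 and Dnaja3, in the endoplasmic reticulum genes Hspa5 and Dnajc25, and in Hspa12a, Dnajb2, Dnajb5, Dnajc21 and Dnajc27. The rises were in Hspa1l and Hspb1. Of all 14619 genes tested, 19.5% were called in this comparison, 10.6% higher and 8.96% lower, so 13 members, or 20% of 65, were near the share of all genes. The median log2 fold change was 0.03 over the members and 0.05 over all genes. All 6 TAC libraries lay below all 5 sham libraries for 7 members and above them for 1, against 7.01% and 6.58% of all genes. Without KO TAC 1 and WT TAC 3, the TAC libraries of low ribosomal protein share, 27 members were called over both genotypes, 9 higher and 18 lower, while the share of all genes called was 37.8%. These libraries were singled out by a share measured in the same data, and 2 libraries then remain in each TAC group. Counts without them are therefore a description and no support for a call.

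Within the genotypes, fewer libraries stood behind each comparison. In KO mice 1 of 65 members was called after TAC, Hspa12a, which fell, against 4.70% of all genes (3.32% higher and 1.37% lower). In WT mice 7 were called, all lower (Dnajc28, Hsph1, Hspd1, Hspa12a, Dnajc27, Dnaja3 and Dnajb2), or 10.8% of members against 6.92% of all genes (3.88% higher and 3.04% lower). All KO TAC libraries lay above all KO sham libraries for 6 members and below them for 12, against 13% and 12.8% of all genes. All WT TAC libraries lay above both WT sham libraries for 5 members and below them for 21, against 19.1% and 21.2% of all genes. Without KO TAC 1 and WT TAC 3, the calls were 10 in KO and 26 in WT, against 14.7% and 30.4% of all genes. At an unadjusted p under 0.05 there were 12 members in KO, against 19.3% of all genes, and 19 in WT, against 25.8% of all genes. The KO and WT comparisons had median log2 fold changes of -0.00 and -0.07 over the members. All genotype comparisons below and the comparison over both genotypes use some of the same libraries, so their values are given side by side only.

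Among the scalings run, library totals changed which members were called, and the balance of rises and falls over both genotypes and in KO. RLE size factors, or TMM without the mitochondrially encoded genes, gave the main counts of 13 members over both genotypes, 1 in KO and 7 in WT. Of all genes, 19.4%, 4.9% and 6.85% were called with RLE, and 19.3%, 4.63% and 6.76% without the mitochondrially encoded genes. No member called with TMM scaling changed the sign of its fold change under any alternative. Scaling by library totals in place of TMM moved the median log2 fold change of all genes to 0.45 over both genotypes (0.05 with TMM), to 0.49 in KO (0.03 with TMM) and to 0.37 in WT (0.05 with TMM). It then called 14 members higher and 2 lower over both genotypes, 4 higher and 0 lower in KO, and 0 higher and 1 lower in WT, and the share of all genes called was 27.1%, 9.45% and 8%. Over both genotypes Dnajc28 and Hspa12a were the 2 still called lower, so falls named below are relative to the bulk of genes.

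**Figure D2:**
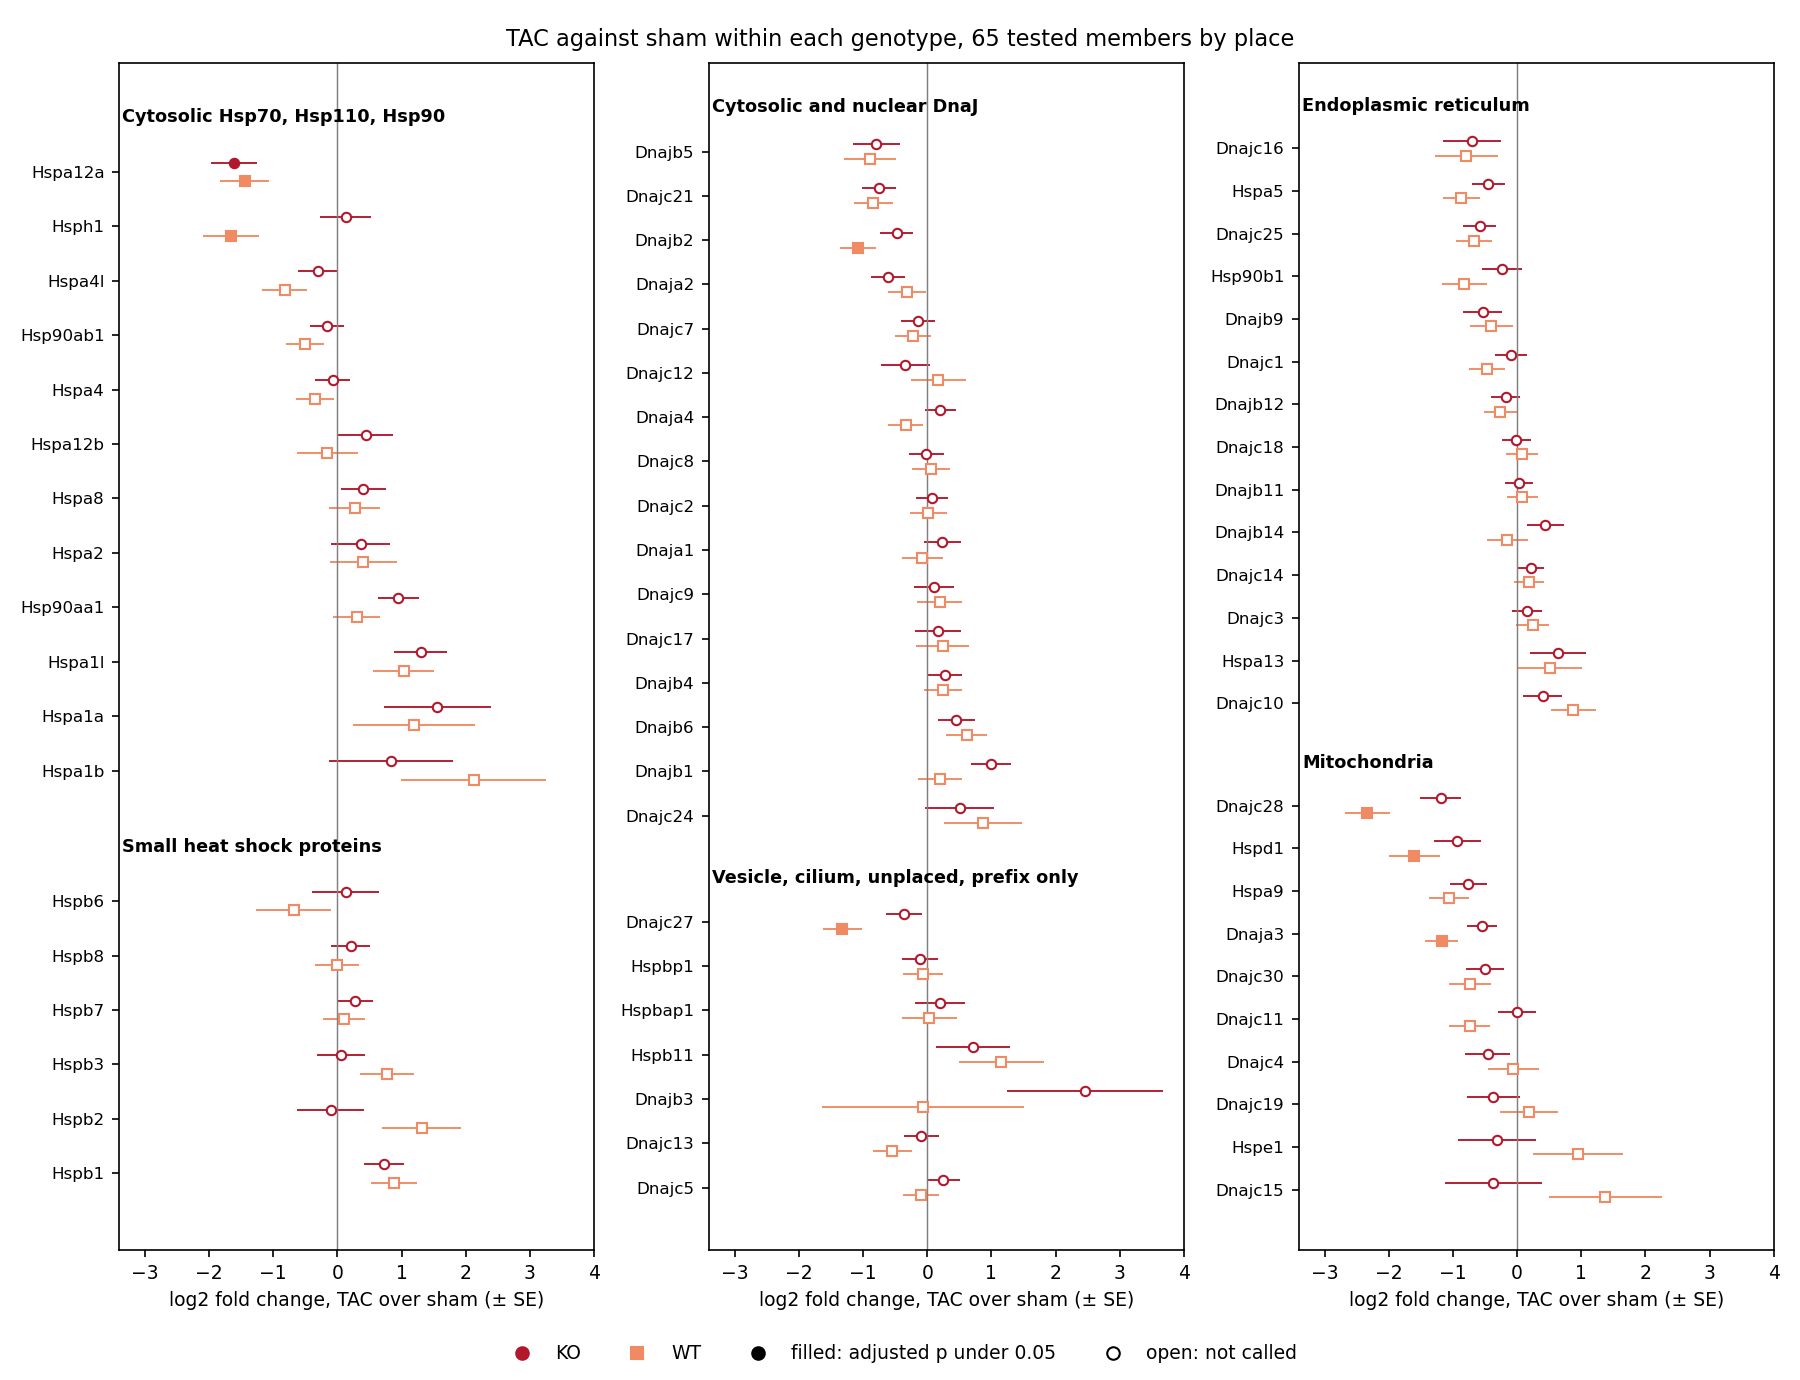
Log2 fold change of TAC over sham with its SE (horizontal axis) for the 65 tested members, with KO as circles and WT as squares, grouped by place in the cell. Filled symbols passed an adjusted p of 0.05, which 1 member did in KO and 7 did in WT, and all 10 mitochondrial members in KO and 7 of the 10 in WT lie left of 0 with this scaling.

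Mitochondrial chaperones, with Dnajc28 counted among them, held 4 of the 11 falls over both genotypes, where 8.96% of all genes fell. Of the 10 tested, 3 fell in WT, against 3.04% of all genes. In KO 0 were called, and 4 had an unadjusted p under 0.05, against 19.3% of all genes. The median log2 fold change of the 10 was -0.47 over both genotypes, -0.48 in KO and -0.74 in WT. With library totals it was -0.05, 0.01 and -0.37, where the median of all genes was 0.45, 0.49 and 0.37. Its lowest value among the 3 alternatives examined by place was -0.75, -0.74 and -1.11 in the same order. In bulk RNA, fewer cells of a type and less RNA per cell cannot be told apart. Summed ventricular cardiomyocyte markers were lower in all KO TAC than in all KO sham libraries. In WT the sums overlapped, with 57240 CPM in WT TAC 1 and 53620 in WT TAC 2 against 53120 in WT sham 2. Gene by gene, 3 of the 8 markers were called lower over both genotypes, against 8.96% of all genes, with a median log2 fold change of -0.45. The part of cardiomyocyte content in the falls of mitochondrial chaperones was not tested.

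Dnajc28, a small J-domain protein, is grouped here with the mitochondria, a place less certain than that of the other 9. It had the largest fall of the tested members over both genotypes. It measured 31.1, 20.4 and 24.7 CPM in KO TAC and 10.1, 13.02 and 24.9 CPM in WT TAC libraries. In sham libraries it measured 53.5, 57.4 and 63.0 CPM in KO and 79.2 and 82.1 CPM in WT. Every TAC library lay below every sham library. The log2 fold change was -1.71 ± 0.28 (SE) over both genotypes (adjusted p = 0.00114), and -2.33 ± 0.35 in WT (adjusted p = 0.00437). In KO it was -1.19 ± 0.32 (adjusted p = 0.0519) and missed the threshold.

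Hspd1 encodes Hsp60, the chaperonin of the mitochondrial matrix. It measured 239, 147 and 119 CPM in KO TAC and 96.9, 75.2 and 181 CPM in WT TAC libraries. It measured 271, 380.0 and 311 CPM in KO sham, and 311 and 405 CPM in WT sham libraries, again with no overlap between the surgeries. It fell by 1.23 ± 0.27 on the log2 scale over both genotypes (adjusted p = 0.00758) and by 1.60 ± 0.40 in WT (adjusted p = 0.0346), with -0.93 ± 0.37 in KO (adjusted p = 0.184). KO TAC 1 and WT TAC 3, the TAC libraries with the lowest ribosomal protein share, had the highest Hspd1 level of their groups.

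Hspa9 (mortalin), which pulls proteins through the inner membrane, fell by 0.90 ± 0.21 over both genotypes (adjusted p = 0.00895). It measured 623, 451 and 353 CPM in KO TAC and 391, 383 and 566 CPM in WT TAC libraries, and 734, 897 and 788 CPM in KO sham and 856 and 1007 CPM in WT sham libraries. Dnaja3 (Tid1), the DnaJ partner of Hspa9, fell by 0.83 ± 0.19 over both genotypes (adjusted p = 0.00817) and by 1.18 ± 0.26 in WT (adjusted p = 0.0226). It measured 111, 109 and 89.1 CPM in KO TAC and 67.04, 75.7 and 102 CPM in WT TAC libraries, against 149.5, 151 and 150.5 CPM in KO sham and 199 and 169.7 CPM in WT sham libraries. For both genes the surgeries did not overlap. In the GENCODE annotation 153 of the 3912 exon bases of Dnaja3 overlap Coro7 and 160 overlap Vasn, genes of at most 11.1 CPM.

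Hspe1 encodes Hsp10, the lid of the Hsp60 chamber, and did not follow Hspd1 in the model without the ribosomal protein share. It measured 18.7, 58.0 and 73.9 CPM in KO TAC and 161, 51.5 and 27.0 CPM in WT TAC libraries, against 79.9, 42.3 and 64.7 CPM in KO sham and 54.2 and 28.5 CPM in WT sham libraries. The log2 fold change was 0.23 ± 0.49 over both genotypes (adjusted p = 0.78), -0.31 ± 0.61 in KO and 0.95 ± 0.70 in WT, and the groups overlapped. The Hspe1 to Hspd1 ratio was 0.0781, 0.395 and 0.620 in KO TAC and 1.66, 0.684 and 0.149 in WT TAC libraries. In sham libraries it was 0.294, 0.111 and 0.208 in KO and 0.174 and 0.0704 in WT. In each of the 4 groups the lowest ratio was in the library of lowest ribosomal protein share. With that share as a term in the edgeR model, Hspe1 was called lower over both genotypes (log2 fold change -1.03, adjusted p = 0.00404). Its direction thus depended on that term, and the cause was not tested.

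The 2 genes stand head to head on chromosome 1, and their exons overlap by 112 bases on opposite strands. The stretch below is printed because it holds a heat shock element, the binding motif of heat shock factors, that lies in the promoter windows of both. It covers chr1:55088053-55088082 of GRCm38, read from the RefSeq promoter windows, with the overlapping matches in capitals. The motif searched was GAA, TTC and GAA in a row with 2 bases of any kind between them.
Hspd1 (minus strand): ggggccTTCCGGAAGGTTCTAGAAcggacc
Hspe1 (plus strand): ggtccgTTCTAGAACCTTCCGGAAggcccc
Searched on both strands in windows of 250 bases before to 50 bases after each start, this motif of 3 units was found in 0.603% of 32851 windows. Among the 59 members with a window it was found for Hspd1, Hspe1, Hsph1 and Dnajb6. A match is a description of letters and shows no binding.

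**Figure D3:**
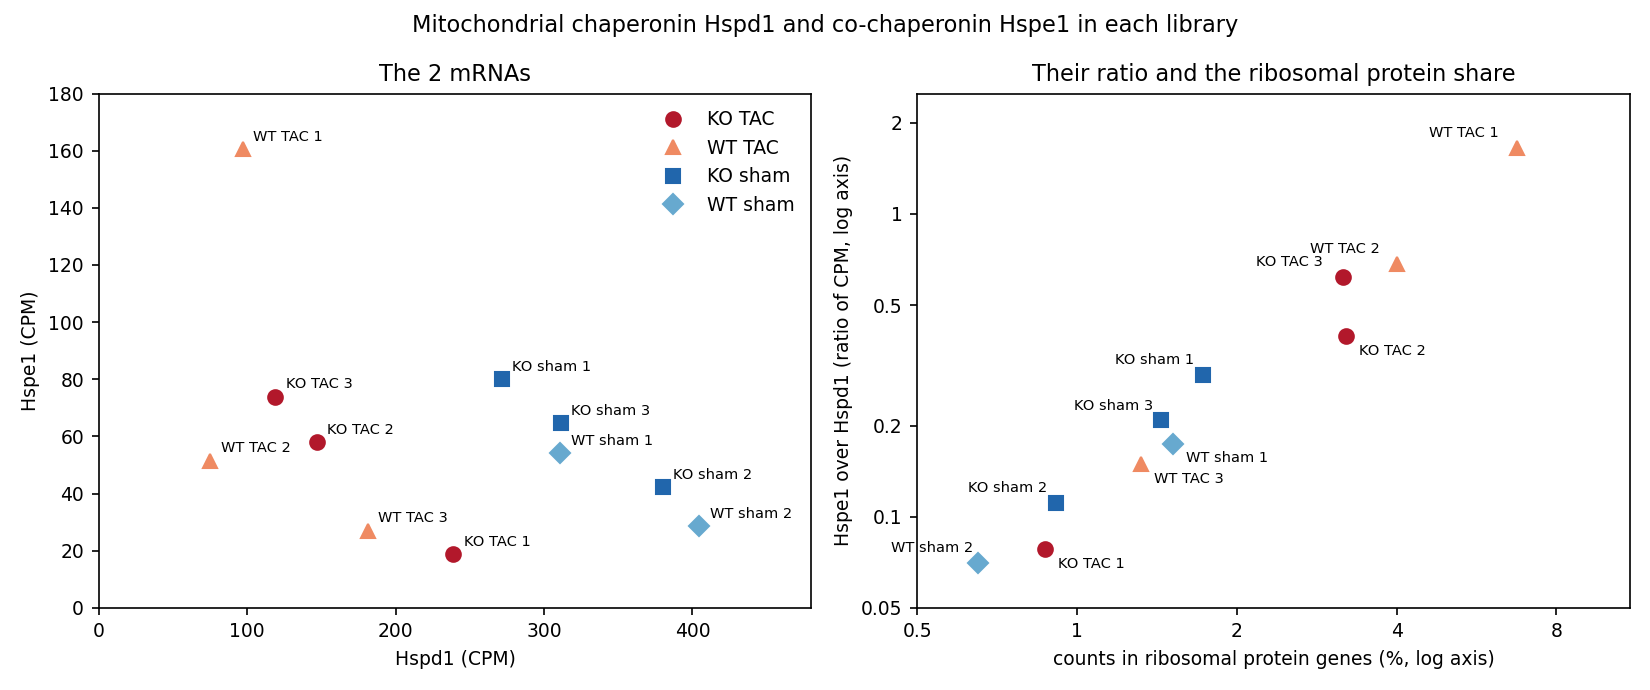
Hspe1 against Hspd1 level in each library (left, CPM) and the Hspe1 to Hspd1 ratio against the percent of counts in ribosomal protein genes (right, log axes), with 1 point per library. TAC libraries lie left of sham libraries on the Hspd1 axis, and the ratio runs from 0.0704 in WT sham 2, where the ribosomal protein share was 0.652%, to 1.66 in WT TAC 1, where it was 6.74%.

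Dnajc15, an inner membrane protein known to restrain the respiratory chain, varied most among the mitochondrial members. It measured 55.0, 354 and 338 CPM in KO TAC, 1064, 461 and 143 CPM in WT TAC, 464, 118 and 382 CPM in KO sham, and 286 and 142 CPM in WT sham libraries. No group stood clear of another, and the log2 fold change was 0.37 ± 0.64 over both genotypes (adjusted p = 0.725). Dnajc19, a part of the import motor that is mutated in a human cardiomyopathy, measured 29.6 to 66.1 CPM in KO TAC, 38.9 to 94.1 in WT TAC, 46.4 to 97.8 in KO sham, and 73.3 and 46.6 CPM in WT sham libraries. Its log2 fold change was -0.12 ± 0.30 (adjusted p = 0.811). Both were lowest in their groups in the libraries of low ribosomal protein share. When that share was added to the edgeR model, Hspe1 (log2 fold change -1.03, adjusted p = 0.00404) and Dnajc15 (-1.20, adjusted p = 0.0233) were called lower over both genotypes, the opposite direction to the values without it. Dnajc19 was then called lower too, at -0.76 (adjusted p = 0.0245). Hspd1, Hspa9, Dnaja3 and Dnajc28 kept their calls in that model, at -0.84, -0.65, -0.61 and -1.24. The others, Dnajc4, Dnajc11 and Dnajc30, were not called, at -0.28, -0.33 and -0.61 over both genotypes.

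In the cytosol, the Hsp70, Hsp110 and Hsp90 genes moved in both directions. Of 12 tested, 1 rose and 1 fell over both genotypes, 1 fell in KO and 2 fell in WT. Of all genes, 10.6% rose and 8.96% fell over both genotypes, 1.37% fell in KO and 3.04% fell in WT. The median log2 fold change of the 12 was 0.26 over both genotypes, 0.38 in KO and 0.06 in WT. With the ribosomal protein share in the model the median turned to -0.15 over both genotypes and -0.37 in WT. With library totals it was 0.67 over both genotypes, 0.84 in KO and 0.39 in WT.

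Hspa12a, a distant Hsp70 relative, was called in all 3 TAC comparisons. It measured 11.3, 4.91 and 7.77 CPM in KO TAC and 6.07, 4.85 and 11.1 CPM in WT TAC libraries, against 24.4, 23.5 and 25.5 CPM in KO sham and 18.1 and 21.9 CPM in WT sham libraries. No TAC library reached the lowest sham library. The log2 fold change was -1.54 ± 0.25 over both genotypes (adjusted p = 0.0013), -1.61 ± 0.36 in KO (adjusted p = 0.0249) and -1.45 ± 0.39 in WT (adjusted p = 0.0438).

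Hspa1l, an Hsp70 known mainly from testis, rose at a low level. It measured 2.72, 2.94 and 5.66 CPM in KO TAC and 3.51, 4.09 and 4.10 CPM in WT TAC libraries, and 1.02, 1.93 and 1.60 CPM in KO sham and 1.69 and 2.12 CPM in WT sham libraries. All TAC libraries lay above all sham libraries, and the log2 fold change was 1.18 ± 0.30 over both genotypes (adjusted p = 0.0155). It was 1.30 ± 0.42 in KO (adjusted p = 0.101) and 1.03 ± 0.47 in WT (adjusted p = 0.19). Its exons overlap the opposite-strand gene Gm10501 over 1778 of 2472 bases, and the strand setting of the counting is not given in the sources used here. Gm10501 itself did not exceed 0.241 CPM. How reads in the shared stretch were assigned is not known, so that low value does not settle the part of the overlap.

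The stress-inducible Hspa1a and Hspa1b were low, and some libraries lay near 3 counts, which equal 0.143 to 0.278 CPM. Hspa1a measured 0.619, 0.520 and 2.46 CPM in KO TAC and 1.31, 0.759 and 0.830 CPM in WT TAC libraries, and 0.463, 0.663 and 0.0694 CPM in KO sham and 0.437 and 0.393 CPM in WT sham libraries. Hspa1b measured 1.38, 1.27 and 0.286 CPM in KO TAC and 3.10, 1.40 and 1.505 CPM in WT TAC libraries, and 1.11, 0.241 and 0.347 CPM in KO sham and 0.875 and 0 CPM in WT sham libraries. Neither was called, with log2 fold changes of 1.40 ± 0.60 (adjusted p = 0.121) and 1.40 ± 0.74 (adjusted p = 0.208) over both genotypes. Their transcripts are near copies, with 52.7% of the 75-base pieces of Hspa1a found unchanged in Hspa1b, so that the counting could split shared reads or leave them out. Their promoter windows are equal at 296 of 300 bases, and both hold the same GAANNTTC match, a heat shock element of 2 units found, in this or the TTCNNGAA form, in 15.1% of all windows. The stretch is shown for the pair, minus strand, at chr17:34972208-34972305 for Hspa1a and chr17:34959290-34959387 for Hspa1b, with the match in capitals.
Hspa1a and Hspa1b: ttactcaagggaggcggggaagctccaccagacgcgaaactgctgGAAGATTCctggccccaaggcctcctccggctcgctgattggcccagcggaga

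Hsph1, the main Hsp110 and the nucleotide exchange factor of cytosolic Hsp70, was called in WT mice. It measured 32.3, 19.3 and 43.2 CPM in KO TAC and 12.1, 8.23 and 23.7 CPM in WT TAC libraries, against 23.8, 32.8 and 29.9 CPM in KO sham and 35.2 and 57.3 CPM in WT sham libraries. In WT all TAC libraries lay below both sham libraries and the log2 fold change was -1.65 ± 0.44 (adjusted p = 0.0418). In KO the groups overlapped and it was 0.13 ± 0.40 (adjusted p = 0.912). The difference between these changes was 1.78 ± 0.59 on the log2 scale, with an adjusted p of 0.992 in the interaction test, so a difference between the genotypes was not shown. Hsph1 holds a match to the heat shock element of 3 units just after its annotated start, printed from chr5:149636287-149636316 on the minus strand with the match in capitals.
Hsph1: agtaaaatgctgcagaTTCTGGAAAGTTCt

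The abundant Hsp70 and Hsp90 genes were not called. Hspa8 measured 552, 972 and 1373 CPM in KO TAC and 1081, 1315 and 731 CPM in WT TAC libraries, and 863, 620.2 and 707 CPM in KO sham and 813 and 918 CPM in WT sham libraries (log2 fold change 0.34 ± 0.25, adjusted p = 0.362). Hsp90ab1 measured 863 to 1070.0 CPM in KO TAC, 646 to 949.5 in WT TAC, and 857 to 1209 CPM in KO sham libraries, with both WT sham libraries above all WT TAC libraries and at most 1255 CPM (-0.32 ± 0.19, adjusted p = 0.27). Hsp90aa1, the inducible form, had 78.5, 94.8 and 125 CPM in KO TAC, above the 42.8, 58.7 and 52.5 CPM in KO sham libraries. In WT it had 83.2, 60.9 and 109 CPM after TAC and 45.4 and 91.8 CPM after sham, and its log2 fold change over both genotypes was 0.66 ± 0.25 (adjusted p = 0.079). Hspa2, another Hsp70 known from testis, measured 1.85 to 6.23 CPM with overlapping groups (0.38 ± 0.33, adjusted p = 0.455). The Hsp110 relatives Hspa4 and Hspa4l (-0.20 and -0.54) and Hspa12b (0.17), known from endothelium, were not called over both genotypes either.

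Cytosolic and nuclear DnaJ genes held 3 falls and no rise among 16 tested over both genotypes, against 8.96% and 10.6% of all genes. In WT 1 fell, against 3.04% of all genes. In KO 0 were called, and 3 had an unadjusted p under 0.05, against 19.3% of all genes. The median log2 fold change of the 16 was 0.03 over both genotypes, 0.09 in KO and 0.04 in WT. With the ribosomal protein share in the model it was -0.12, -0.00 and -0.29, and with library totals 0.44, 0.57 and 0.37. Dnajb2, which hands clients to the proteasome, measured 55.8, 49.5 and 49.1 CPM in KO TAC and 28.3, 33.7 and 53.6 CPM in WT TAC libraries, against 67.4, 71.5 and 76.2 CPM in KO sham and 86.2 and 77.1 CPM in WT sham libraries. The surgeries did not overlap, and it fell by 0.75 ± 0.20 over both genotypes (adjusted p = 0.0181) and by 1.08 ± 0.28 in WT (adjusted p = 0.0401). Dnajc21, which acts in ribosome assembly, measured 36.5, 27.9 and 24.01 CPM in KO TAC and 22.9, 19.2 and 32.4 CPM in WT TAC libraries, against 52.5, 47.6 and 48.9 CPM in KO sham and 35.4 and 53.6 CPM in WT sham libraries. KO TAC 1 lay just above WT sham 1, and the log2 fold change was -0.79 ± 0.19 (adjusted p = 0.0121). Dnajb5, a partner of the hypertrophy regulator Hdac4, measured 56.9, 31.4 and 40.9 CPM in KO TAC and 24.9, 29.0 and 59.2 CPM in WT TAC libraries, against 58.0, 105 and 60.6 CPM in KO sham and 73.7 and 65.9 CPM in WT sham libraries. WT TAC 3 reached into the sham range, and the log2 fold change was -0.84 ± 0.26 (adjusted p = 0.0396).

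Dnajb1 and Dnajb6 were not called by edgeR with TMM scaling. Dnajb1, the classical partner of inducible Hsp70, measured 12.8, 13.5 and 24.2 CPM in KO TAC, above the 6.67, 9.05 and 9.65 CPM in KO sham libraries. In WT it measured 16.6, 18.5 and 11.3 CPM after TAC and 13.9 and 13.1 CPM after sham, with overlap. Its log2 fold change was 0.99 ± 0.31 in KO (adjusted p = 0.0948), 0.20 ± 0.34 in WT (adjusted p = 0.753) and 0.63 ± 0.25 over both genotypes (adjusted p = 0.0912). In KO it was called higher with DESeq2, with library totals (1.43, adjusted p = 0.02) and without KO TAC 1 and WT TAC 3. Dnajb6, which keeps proteins from aggregating and whose human mutations cause a muscular dystrophy, measured 8.00, 9.18 and 9.43 CPM in KO TAC and 12.0, 6.54 and 12.3 CPM in WT TAC libraries. Its sham libraries were tight, at 6.57, 6.45 and 6.39 CPM in KO and 6.81 and 6.61 CPM in WT, and its log2 fold change was 0.53 ± 0.20 (adjusted p = 0.0905), with a call with library totals (0.93, adjusted p = 0.0108) and without WT TAC 2. Dnaja1 (0.09 ± 0.21), Dnaja4 (-0.04 ± 0.18) and Dnajb4 (0.27 ± 0.19) had TAC and sham libraries that overlapped over both genotypes, with adjusted p-values of 0.787, 0.903 and 0.357. For Dnaja4, 1581 of 3589 exon bases overlap Wdr61 on the other strand, a gene of similar level. The other 8 of this group had log2 fold changes between -0.48 for Dnaja2 and 0.67 for Dnajc24.

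**Figure D4:**
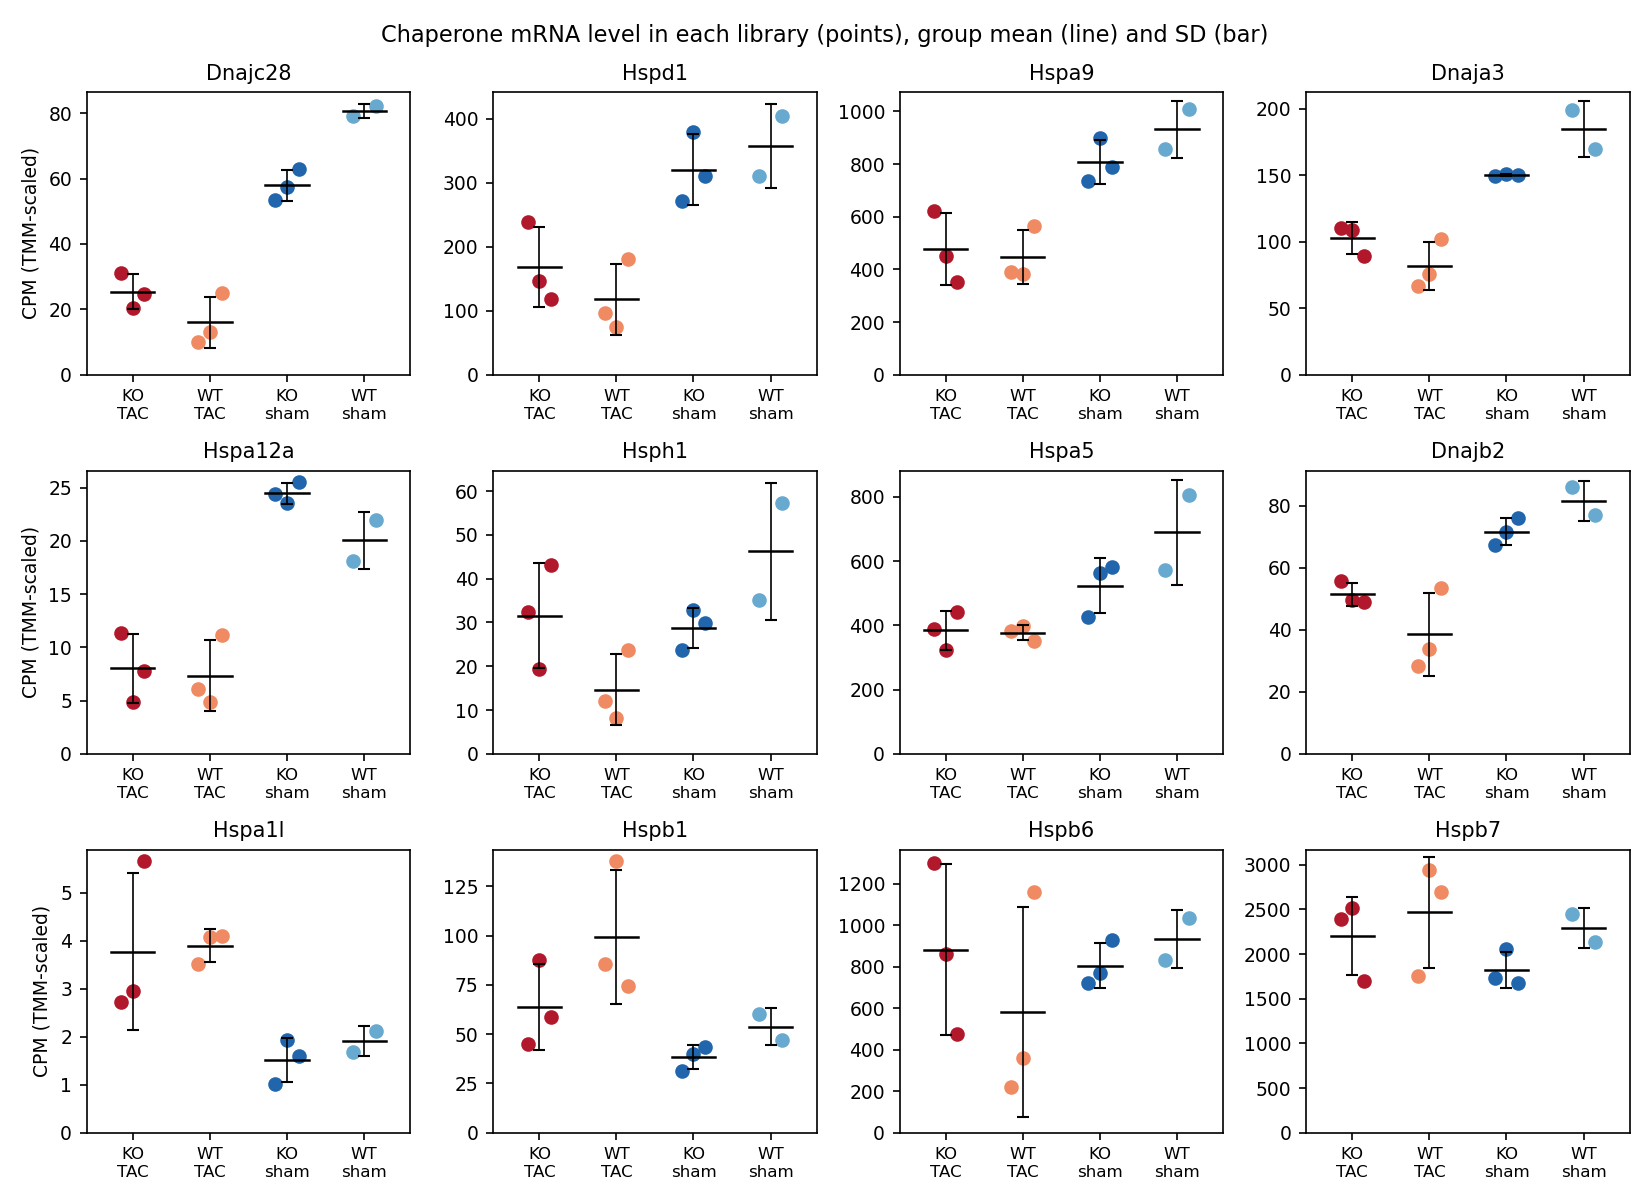
Level of 12 members in each library (vertical axis, CPM scaled by TMM, starting at 0), with the group mean as a line and the SD as a bar, and groups from left to right KO TAC, WT TAC, KO sham and WT sham. Dnajc28, Hspd1, Hspa9, Dnaja3, Hspa12a and Dnajb2 have all 6 TAC points below all 5 sham points, Hspa1l has them above, and Hspb6 spreads from 222 to 1302 CPM among the TAC libraries.

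In the endoplasmic reticulum 2 of 14 tested members fell over both genotypes, against 8.96% of all genes. None of the 14 was called in KO or in WT, where 1 and 4 had an unadjusted p under 0.05, against 19.3% and 25.8% of all genes. The median log2 fold change was -0.09 over both genotypes, -0.05 in KO and -0.21 in WT, and with library totals it turned to 0.30, 0.41 and 0.12. Hspa5 (BiP), the Hsp70 of this compartment and a target of the unfolded protein response, measured 387, 323 and 442 CPM in KO TAC and 382, 397 and 352 CPM in WT TAC libraries. In sham libraries it measured 425, 564 and 581 CPM in KO and 573 and 806 CPM in WT, so that KO TAC 3 overlapped KO sham 1. It fell by 0.64 ± 0.19 on the log2 scale over both genotypes (adjusted p = 0.0318), with -0.45 ± 0.26 in KO (adjusted p = 0.389) and -0.87 ± 0.29 in WT (adjusted p = 0.0824). Dnajc25 measured 13.5, 20.1 and 11.4 CPM in KO TAC and 18.1, 18.3 and 16.1 CPM in WT TAC libraries, below the 22.8, 23.6 and 21.04 CPM in KO sham and 24.1 and 31.7 CPM in WT sham libraries. It fell by 0.62 ± 0.18 over both genotypes (adjusted p = 0.0258).

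Hsp90b1, Dnajb9, Dnajb11, Dnajc3 and Dnajc10 were not called by edgeR with TMM scaling. Hsp90b1 (Grp94) measured 261, 138 and 218 CPM in KO TAC and 169.7, 128 and 199 CPM in WT TAC libraries, and 213, 288 and 223 CPM in KO sham and 223 and 362 CPM in WT sham libraries. Its log2 fold change was -0.50 ± 0.23 over both genotypes (adjusted p = 0.156). Dnajb9 (ERdj4), a short-lived partner of BiP that is induced by endoplasmic reticulum stress, measured 29.9, 43.2 and 66.6 CPM in KO TAC and 63.8, 61.6 and 39.9 CPM in WT TAC libraries. Its sham levels were 76.0, 62.3 and 64.4 CPM in KO and 72.6 and 73.3 CPM in WT (-0.48 ± 0.21, adjusted p = 0.138), and it was called lower with the ribosomal protein share in the model (-0.82, adjusted p = 0.013). Dnajb11 (ERdj3) and Dnajc3 (p58IPK), an inhibitor of the kinase PERK, had log2 fold changes of 0.05 ± 0.15 and 0.20 ± 0.16 and adjusted p-values of 0.845 and 0.431. Dnajc10, a disulfide reductase that works in degradation, had 43.2, 67.7 and 71.6 CPM in KO TAC and 109.6, 72.6 and 52.1 CPM in WT TAC libraries, against 56.2, 44.1 and 38.0 CPM in KO sham and 44.6 and 40.6 CPM in WT sham libraries (0.61 ± 0.23, adjusted p = 0.085). Over both genotypes Dnajc10 was called in 4 alternatives, Hsp90b1 in 2 and Dnajc3 in 1. The other 7, Hspa13, Dnajb12, Dnajb14, Dnajc1, Dnajc14, Dnajc16 and Dnajc18, lay between -0.74 and 0.58 over both genotypes.

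The endoplasmic reticulum stress element, CCAAT and CCACG with 9 bases of any kind between them, on either strand, occurred in 0.119% of the promoter windows and, among members, in Hspa5, Hsp90b1 and Dnajc3. Hsp90b1 has a further match, which starts 107 bases before the gene start and is not printed. Stretches of the 3 genes are shown because only Hspa5 was called by edgeR with TMM scaling. They come from the RefSeq windows on GRCm38, at chr2:34772019-34772048 (plus strand), chr10:86705593-86705694 (minus strand) and chr14:118937782-118937890 (plus strand), with the element in capitals.
Hspa5: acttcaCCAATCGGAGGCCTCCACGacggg
Hsp90b1: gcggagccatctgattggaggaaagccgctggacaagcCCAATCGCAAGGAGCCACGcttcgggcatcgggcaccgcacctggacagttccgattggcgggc
Dnajc3: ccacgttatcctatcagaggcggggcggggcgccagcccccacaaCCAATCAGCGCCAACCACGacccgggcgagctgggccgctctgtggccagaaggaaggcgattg

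Of the small heat shock proteins, 1 of 6 tested, Hspb1, rose over both genotypes, against 10.6% of all genes. None was called in KO or in WT, where 1 each had an unadjusted p under 0.05, against 19.3% and 25.8% of all genes. The median log2 fold change of the 6 was 0.28 over both genotypes, 0.17 in KO and 0.44 in WT, and with library totals 0.67, 0.63 and 0.74. Hspb1 (Hsp27), which binds actin and is phosphorylated under stress, measured 45.1, 87.8 and 58.6 CPM in KO TAC and 85.4, 138 and 74.2 CPM in WT TAC libraries, against 31.6, 40.0 and 43.7 CPM in KO sham and 60.3 and 47.0 CPM in WT sham libraries. Within each genotype all TAC libraries lay above the sham libraries, while KO TAC 1 lay below both WT sham libraries. The log2 fold change was 0.80 ± 0.23 over both genotypes (adjusted p = 0.0258), 0.73 ± 0.32 in KO (adjusted p = 0.227) and 0.89 ± 0.36 in WT (adjusted p = 0.149). Hspb1 is expressed by many cell types. Over both genotypes 4 of 7 fibroblast markers and all 7 macrophage and monocyte markers were called higher, against 10.6% of all genes. Of 5 endothelial markers 0 were called higher, and of 5 smooth muscle and pericyte markers 1 was. The part of these cell types in the Hspb1 result was not tested. The Hspb1 window holds a pair of GAANNTTC matches, which start 117 and 97 bases before the gene start, and the first is in capitals in chr5:135887757-135887854 of GRCm38 (RefSeq, plus strand).
Hspb1: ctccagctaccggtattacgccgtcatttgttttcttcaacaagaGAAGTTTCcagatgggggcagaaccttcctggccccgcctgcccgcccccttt

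The muscle-enriched small heat shock proteins were not called by edgeR with TMM scaling. Hspb7 measured 2395, 2513 and 1703 CPM in KO TAC and 1759, 2940 and 2699 CPM in WT TAC libraries, and 1729, 2058 and 1678 CPM in KO sham and 2452 and 2137 CPM in WT sham libraries (log2 fold change 0.20 ± 0.20, adjusted p = 0.534). Hspb8 measured 488, 863 and 559.9 CPM in KO TAC and 467, 824 and 606 CPM in WT TAC libraries, and 520.3, 519 and 616 CPM in KO sham and 716 and 558 CPM in WT sham libraries (0.11 ± 0.22, adjusted p = 0.761). TAC and sham libraries overlapped for both genes, while all KO sham libraries lay below both WT sham libraries for Hspb7. Hspb6 measured 1302, 864 and 478 CPM in KO TAC and 222, 363 and 1161 CPM in WT TAC libraries, and 721, 769 and 929 CPM in KO sham and 835 and 1034 CPM in WT sham libraries. Its highest TAC values were in KO TAC 1 and WT TAC 3, and the log2 fold change was -0.24 ± 0.39 (adjusted p = 0.711). Hspb2 went the other way in these libraries, with 31.1, 80.6 and 70.4 CPM in KO TAC and 127, 210.5 and 42.7 CPM in WT TAC libraries, against 84.5, 53.1 and 58.4 CPM in KO sham and 72.1 and 29.8 CPM in WT sham libraries (0.50 ± 0.45, adjusted p = 0.466). Hspb3, a binding partner of Hspb2, measured 5.14 to 17.3 CPM over all libraries (0.37 ± 0.29, adjusted p = 0.4). Hspb2 shares 252 of its 834 exon bases with the opposite-strand Cryab, which measured 1013 to 2198 CPM, so reads of the 2 genes cannot be told apart there without strand.

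Outside these places, Dnajc27, a small GTPase with a J domain, fell. It measured 9.43, 7.28 and 10.6 CPM in KO TAC and 5.06, 3.97 and 5.92 CPM in WT TAC libraries, and 12.6, 11.4 and 11.1 CPM in KO sham and 9.93 and 15.03 CPM in WT sham libraries. KO TAC 3 lay just above WT sham 1. The log2 fold change was -0.79 ± 0.23 over both genotypes (adjusted p = 0.0305), -1.32 ± 0.30 in WT (adjusted p = 0.0251) and -0.36 ± 0.28 in KO (adjusted p = 0.539). Dnajc5 and Dnajc13 of vesicles and endosomes (0.10 and -0.29) were not called. Hspb11, a ciliary transport protein, Hspbp1, a nucleotide exchange factor of Hsp70, and Hspbap1 share only the prefix of the small heat shock proteins, and none was called (0.91, -0.09 and 0.13).

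Between KO and WT, no member was called after TAC or after sham surgery, and edgeR in the main setting called no gene at all (0% of 14619 in each). Without the count filter, edgeR called 206 of 24235 genes after TAC (0.85%) and 20 after sham surgery (0.0825%), none of them a member. DESeq2 called 6 genes after TAC and 3 after sham surgery, none of them a member, and limma-voom called 0. After TAC, 3 of 65 members had an unadjusted p under 0.05, against 6.36% of all genes, and the median log2 difference was 0.01 over the members and 0.01 over all genes. These were Dnajc27 (0.87 ± 0.28), Hsph1 (1.10 ± 0.40) and Dnajb3 (3.50 ± 1.28), each with an adjusted p of 0.747. Dnajc27 was higher in all 3 KO TAC than in all 3 WT TAC libraries, Hspa1b was lower in all KO TAC libraries, and every other tested member overlapped, against 4.40% of all genes above and 3.34% below. Dnajb3, a testis DnaJ, rested on 0.0476, 0.924 and 2.52 CPM in KO TAC and 0.179, 0.0584 and 0.0519 CPM in WT TAC libraries, most of it near the limit of detection.

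After sham surgery 0 members had an unadjusted p under 0.05, against 1.27% of all genes, and the median log2 difference of KO against WT was -0.15 over the members and 0.02 over all genes. All 3 KO sham libraries lay below both WT sham libraries for 15 of 65 members and above them for 1, against 8.47% and 6.79% of all genes. The smallest p-values were for Dnajb1 (-0.67 ± 0.34), Dnajb14 (-0.53 ± 0.32) and Dnaja4 (-0.44 ± 0.27), each with an adjusted p of 1. Only 2 WT sham libraries, of which WT sham 2 has a genotype label of its own, stand behind this comparison.

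The interaction, the KO minus WT difference of the TAC effect, called 0 of 65 members and 0% of all genes in the main setting. Without the count filter, edgeR called 80 of 24235 genes (0.33%), none of them a member. DESeq2 and limma-voom also called 0 members, and 3 had an unadjusted p under 0.05 in edgeR, against 2.97% of all genes: Hsph1 (1.78 ± 0.59), Dnajc28 (1.14 ± 0.47) and Dnajc27 (0.96 ± 0.41), each with an adjusted p of 0.992. Hspe1 and Dnajc15 had interaction values of -1.26 ± 0.92 and -1.75 ± 1.16, with adjusted p-values of 0.992.

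Of 66 partners of these chaperones, listed with earlier results of these data known, 64 were tested. Over both genotypes 2 rose and 9 fell, with 19.5% of all genes called. In KO 1 rose, with 4.70% of all genes called, and in WT 2 rose and 4 fell, with 6.92% of all genes called. Fkbp5 and Fkbp4, a pair of immunophilins that compete for Hsp90 and steroid receptors, moved in opposite directions. Fkbp5, a glucocorticoid target, measured 24.8, 40.3 and 45.9 CPM in KO TAC and 62.2, 52.5 and 71.5 CPM in WT TAC libraries, against 5.18, 21.3 and 9.30 CPM in KO sham and 8.62 and 8.42 CPM in WT sham libraries. Fkbp4 measured 175, 110.5 and 127 CPM in KO TAC and 49.7, 55.2 and 111 CPM in WT TAC libraries, against 348, 323 and 315 CPM in KO sham and 411 and 308 CPM in WT sham libraries. For both, the surgeries did not overlap. Fkbp5 rose by 2.16 ± 0.37 over both genotypes (adjusted p = 0.00172), by 1.62 ± 0.43 in KO (adjusted p = 0.0499) and by 2.86 ± 0.52 in WT (adjusted p = 0.0103). Fkbp4 fell by 1.74 ± 0.28 over both genotypes (adjusted p = 0.00107) and by 2.32 ± 0.36 in WT (adjusted p = 0.00559), with -1.26 ± 0.33 in KO (adjusted p = 0.0507).

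Of 12 mitochondrial folding factors and proteases, 5 fell over both genotypes and none rose, against 8.96% and 10.6% of all genes. Partners were not examined with library totals or under the other alternatives. The 5 were the disaggregase Clpb (-0.93 ± 0.17, adjusted p = 0.00279), the protease subunits Spg7 (-0.65 ± 0.18, adjusted p = 0.0216), Afg3l2 and Clpx, and Trap1, the mitochondrial Hsp90. The other falls were in Unc45b, the myosin chaperone (-0.78 ± 0.22, adjusted p = 0.0259), Stub1, the ubiquitin ligase of Hsp70 clients (-0.73 ± 0.20, adjusted p = 0.0213), and Herpud1. P4hb, protein disulfide isomerase, rose over both genotypes (1.19 ± 0.37, adjusted p = 0.0384) and in WT (1.88 ± 0.52, adjusted p = 0.0498). In WT, Clpb fell by 1.03 ± 0.27, and Hyou1 and Syvn1 of the endoplasmic reticulum fell by 1.34 ± 0.36 and 1.23 ± 0.34. None of the 8 subunits of the cytosolic chaperonin TRiC was called by edgeR, or had an unadjusted p under 0.05, in any comparison. All 8 log2 fold changes were positive over both genotypes (median 0.32) and in WT (median 0.51), and 7 were in KO (median 0.18). For KO against WT after TAC all 8 were negative (median -0.33). Hsf1, the main heat shock factor, measured 22.5, 12.7 and 11.7 CPM in KO TAC and 6.37, 6.37 and 14.4 CPM in WT TAC libraries, and 11.8, 20.02 and 19.2 CPM in KO sham and 21.5 and 14.9 CPM in WT sham libraries (-0.52 ± 0.30 over both genotypes, adjusted p = 0.243). Cryab, alpha-B crystallin, was not called (0.08 ± 0.22, adjusted p = 0.829), and no partner was called between KO and WT.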

How the data were processed

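RNA of 11 mice was sequenced, 1 library each. The authors deposited raw counts per Ensembl gene. Per the submitters' processing notes they used STAR 2.5.1, featureCounts and DESeq2 with build GRCm38. Strand setting, annotation and treatment of reads with several alignments are not given in the sources used here. Of 46517 identifiers, 46005 matched GENCODE M21 symbols. Every column was used.

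All tests ran in R 4.3.3, with edgeR 4.0.16 as the main tool (filterByExpr, TMM, quasi-likelihood test, 1 mean per group over all 11 libraries, or surgery plus genotype over both genotypes). Tests were 2-sided and adjusted by Benjamini-Hochberg over 14619 genes at 0.05. SEs are fold changes over the root of F and approximate. limma 3.58.1 and DESeq2 1.42.0 served as alternatives. The scripts were tested on simulated data. Floors (3 counts) cover counting error only.

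Members and lists were chosen with earlier results of these data known. Named were a fixed list by role, Lmnb2, every called member, the 3 of smallest p where none was called, the 6 highest per length, Cryab, Hsf1 and up to 6 called partners per comparison by smallest p, with other called partners listed by name. Replicate numbers follow accession order, and nothing in the labels says more of the samples' independence than separate title numbers, so p-values measure spread between these samples. Title numbers differ between TAC and sham samples, so any batch that follows them cannot be told apart from surgery.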

Additional observations from a re-analysis of the deposited data

How the results depend on the processing

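No paired analysis was possible because the labels give no replicate numbers shared between groups. Over both genotypes, 13 members were called, and leaving out 1 library gave 7 to 17 (7 without WT sham 1, with 10.7% of all genes called, 7 without WT sham 2, with 12.1%, and 17 without KO TAC 1, with 26.7%). In KO, 1 was called, and leaving out 1 library gave 0 to 2 (0 without KO TAC 2, KO TAC 3, KO sham 1, KO sham 2 or KO sham 3; 2 without KO TAC 1, WT TAC 1 or WT TAC 3), while 1.55% to 6.87% of all genes were called. In WT, 7 were called, and leaving out 1 library gave 0 to 16 (0 without WT sham 1; 1 without WT TAC 1, WT TAC 2 or WT sham 2; 3 without KO sham 3; 4 without KO sham 1 or KO sham 2; 16 without WT TAC 3). Of all genes, 18.4% were then called without WT TAC 3, 2.75% without WT TAC 1, 2.51% without WT TAC 2, 4.52% to 5.42% without 1 of the KO sham libraries, 0.193% when WT sham 1 was left out and 0.565% when WT sham 2 was left out. Leaving out KO TAC 1 and WT TAC 3 together gave 27 over both genotypes (37.8% of all genes called), 10 in KO (14.7%) and 26 in WT (30.4%), and the cause was not tested.

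Other counts that moved by over 1.5 times were, in KO, 4 with library totals (9.45% of all genes called), 4 with DESeq2 (10.7%), 2 with limma-voom (3.39%), 2 without a filter (5.49%), 2 with a mean of at least 1 CPM (5.93%), 3 with the ribosomal protein share as a term (9.77%) and 2 with only the groups compared (4.39%). In WT they were 1 with library totals (8%), 3 with the title letter as a term (4.16%), 1 with the ribosomal protein share as a term (3.67%) and 1 with only the groups compared (3.34%). With that share as a term, Hspe1 (-1.03) and Dnajc15 (-1.20) turned to called falls over both genotypes, Dnajc19 (-0.76) and Dnajb9 (-0.82) were also called lower, and the cause was not tested. Of the named members not called, 13 of 25 over both genotypes, 7 of 31 in KO and 11 of 28 in WT were called in their own direction under at least 1 alternative. Of the 13 calls over both genotypes, Dnajc28 and Hspa12a held under all 21 alternatives, Hspd1, Hspa9 and Dnaja3 were lost with library totals alone (adjusted p = 0.0607, 0.153 and 0.181), and Hspa1l was lost without WT sham 1 alone (adjusted p = 0.0503). Hspb1 was lost without KO TAC 2, KO sham 1, WT sham 1 or WT sham 2, and with a term for ribosomal protein share (adjusted p up to 0.0981). Dnajc21 was lost in 2 alternatives, Dnajb2 in 4, Dnajc25 in 5, Dnajc27 in 7, Hspa5 in 10 and Dnajb5 in 11. In WT, Dnajc28 was lost in 1 of 22 alternatives, without WT sham 1 (adjusted p = 0.0537), and the other 6 in 7 to 13. In KO, Hspa12a was lost in 6 of 22. No member was called between KO and WT or in the interaction under any alternative run. Over all genes, the count called in KO was 687, against 1499 with DESeq2, and in WT 1011, against 2197 with DESeq2. Depth limits Hspa1a, Hspa1b and Dnajb3, which lay near 3 counts in some libraries.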
